A study of Rattus norvegicus with 35 samples.

Results

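The enzymes that place DNA methylation and repressive histone marks were followed in rat converted hypoblast stem cells, as a set of 9 genes chosen by symbol: Dnmt1, Dnmt3a, Dnmt3l, Ezh2, Eed, Suz12, Hdac1, Hdac2 and Hdac3. Each of 8 genes matched 1 record of the deposited table, out of 17198 genes in all, and Suz12 matched none and was not analysed here. Rat embryonic stem cells had been converted by culture with 2% serum and the factors LIF, PDGF and EGF. The initial plating lasted 7 days, passages were at intervals of 2 to 3 days, and the cells were taken on day 12. There were 34 libraries of single cells captured on a microfluidic chip and 1 library of the bulk population, which had the same source, medium and day. The sources used here give no strain, number of cultures or batch. Each group therefore counts as a single sample, and no difference between cells and bulk could be tested.

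Cytosine methylation at CpG sites is written by de novo methyltransferases and copied to the new strand after replication by a maintenance enzyme. Polycomb repressive complex 2 (PRC2) methylates lysine 27 of histone H3, and class I histone deacetylases remove acetyl groups as parts of corepressor complexes. Extraembryonic lineages, to which the hypoblast belongs, are known for lower DNA methylation than the embryo proper.

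Cells held between 6288 and 503044 reads in genes, with a median of 266046, and the bulk library 47121. Levels are given as CPM, the library-scaled count of a gene whose values sum to 1000000 in each library, and 5 CPM or more counts as detection in a cell. A single read was worth 21.2 CPM in the bulk library, where a count of 0 allows up to 3 reads, or 63.7 CPM. Between 349 and 5514 genes had a read in a cell. The 22 cells with at least 50000 reads and at least 3000 genes with a read are called the deep cells. Among the other 12, C94 (6288 reads, 349 genes) and C88 (12750 reads, 445 genes) were the shallowest, while C03, C74 and C95 had many reads in few genes. Of 11 hypoblast markers, 10 were detected in at least 17 cells, including Gata6 in 28 and Sparc in 33, and Sox7 was detected in 12. Of the fibroblast markers, Col1a2 and Col1a1 were detected in 4 cells each, Postn in 3, Col3a1 in 1 and Thy1 in 0. Among measured pluripotency markers, Pou5f1, the gene of Oct4, was found in 3 cells, Nanog in 7, Sox2 in 3 and Esrrb in 0. Nanog was highest in C17 (15.4 CPM) and Sox2 in C94 (318 CPM), and Pou5f1 was detected in neither cell. In C17 1 read was worth 15.4 CPM, and in C94 159 CPM, so these levels rest on very few reads. Among measured trophoblast markers, Tfap2c was found in 6 cells, at up to 653 CPM in C95, and Cdx2 and Elf5 in 0.

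Most of the enzymes were found in many cells but at uneven levels. At least 17 of the 34 cells held Hdac1 (27 cells), Dnmt1 (20), Dnmt3l (20), Hdac2 (20) and Eed (18), whereas Hdac3 was detected in 14 cells, Ezh2 in 12 and Dnmt3a in 8. Thus 5 of the 8 measured genes reached 17 cells, where 17% of all genes in the table did so and 27.3% of the genes with a read in any cell. At 50 CPM or more, Hdac1 alone reached 17 cells (25 cells). No transcript lengths were used, so levels and detection are not ranked between genes as amounts of RNA.

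**Figure D1:**
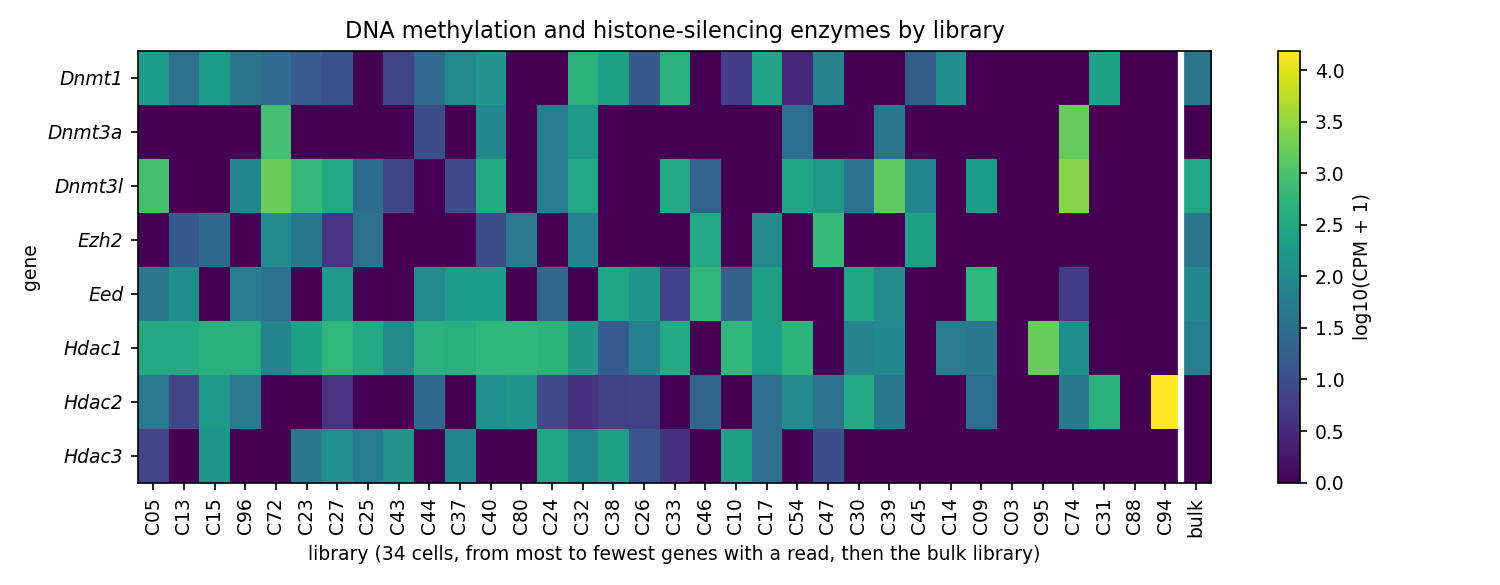
Level of the 8 measured enzymes in every library, as log10(CPM + 1), with the cells ordered from most to fewest genes with a read and the bulk library at the right. Hdac1 fills most columns on the left, Dnmt3a is at 0 in 26 of 34 cells, and the brightest field is Hdac2 in C94, the cell with the fewest genes.

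The number of the 8 enzymes detected per cell ran from 0 to 7, with a median of 4.5. It was 7 in C40, which lacked only Hdac3, and 0 in C03 and C88. C94 held a single member, Hdac2, and C95 a single member, Hdac1. The median was 5 in the deep cells and 2.5 in the other 12, and the number went with the genes found in a cell (Spearman's rho 0.68 over 34 cells, 0.28 over the 22 deep cells) more than with its reads (0.14 over 34 cells). These are descriptions over cells of 1 sample, and the part of library quality in the counts was not tested.

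Among the DNA methyltransferases, Dnmt1, the maintenance enzyme that copies methylation patterns after replication, ranged from 0 to 485 CPM over cells, with a median of 14.8 and a mean of 81.2 ± 131 CPM (SD over 34 cells). It was detected in 58.8% of cells (95% Clopper-Pearson interval 40.7% to 75.4%). The highest values were in C32 (485 CPM, 157 reads) and C33 (465 CPM, 153 reads), followed by C17 (277 CPM, 18 reads). No single cell dominated, since C32 held 17.6% of the summed CPM. The bulk library had 2 reads, or 42.4 CPM (Poisson interval 5.14 to 153).

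Dnmt3a, a de novo methyltransferase, was detected in 8 cells (23.5%, interval 10.7% to 41.2%) and ranged from 0 to 1571 CPM, with a median of 0 and a mean of 83.8 ± 303 CPM. A pair of cells held most of its signal: C74, with 678 reads and 1571 CPM, and C72, with 244 reads and 874 CPM. The next highest, C32, had 176 CPM. C74 alone held 55.1% of the summed CPM, and the mean without it was 38.7 CPM. The bulk library had 0 reads.

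Dnmt3l, which has no methyltransferase activity of its own and stimulates the de novo enzymes, was found in more cells than its partner Dnmt3a. It was detected in 20 cells and ranged from 0 to 2694 CPM, with a median of 25.4 and a mean of 288 ± 590 CPM. The same cells, C74 (2694 CPM, 1163 reads) and C72 (1773 CPM, 495 reads), were the highest for Dnmt3l too, followed by C39 (1426 CPM) and C05 (910 CPM). The bulk library had 15 reads of Dnmt3l, or 318 CPM (interval 178 to 525), and the mean of the cells was 0.905 of that level (interval 0.549 to 1.62). Without C74 the mean was 215 CPM, or 0.676 of the bulk level.

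Cells with Dnmt3a nearly all had Dnmt3l. Both were detected in 7 cells. Dnmt3l was thus found in 87.5% of the cells with Dnmt3a, beside 58.8% of all cells, and Dnmt3a in 35% of the cells with Dnmt3l, beside 23.5% of all cells. Only C44 had Dnmt3a (9.20 CPM, 3 reads) without Dnmt3l. Spearman's rho between them was 0.40 over the 22 deep cells, which leave out C74, and 0.28 without C72 as well. It was the highest rho among the 28 pairs of members over the deep cells. The lowest was of nearly the same size, -0.38 for Hdac2 with Hdac3.

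The cells with both at high levels were also cells with Pou5f1. Pou5f1 was detected in C74 (505 reads, 1170 CPM), C72 (18 reads, 64.5 CPM) and C40 (4 reads, 18.05 CPM), and all 3 held both Dnmt3a and Dnmt3l. Dnmt3a was at 1571, 874 and 90.2 CPM in these 3 cells, and among the other 31 cells it was detected in 5, at up to 176 CPM and with a mean of 10.1 ± 33.5 CPM. Dnmt3l was at 2694, 1773 and 388 CPM, and it was detected in 17 of the other 31 cells, at up to 1426 CPM, with a mean of 159 ± 315 CPM. For both genes C74 and C72 lay above every cell without Pou5f1, and C40 lay within the range of those cells. The 3 cells were picked by a measured gene, so these values are a description without a test. C74 had only 1556 genes with a read, and what this does to its high CPM values was not tested.

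**Figure D2:**
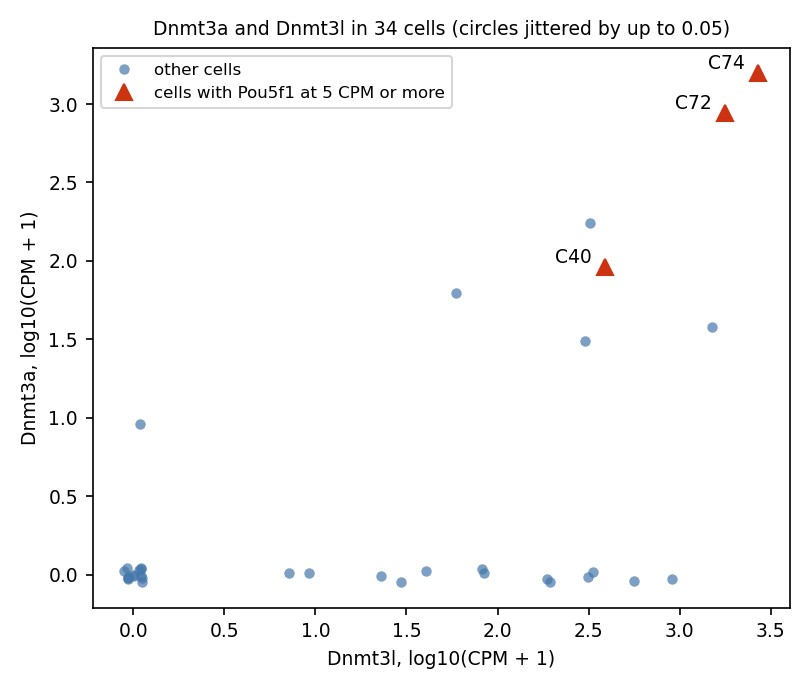
Dnmt3a against Dnmt3l as log10(CPM + 1), 1 point per cell; triangles are the 3 cells with Pou5f1 at 5 CPM or more. C74 and C72 lie at the top right with the highest values of both genes, and 13 cells lie along the lower edge with Dnmt3l and no Dnmt3a.

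The upstream sequences of this pair are shown because the 2 genes reached their highest levels in the same cells. They are the 250 bases before the annotated start in RefSeq (build GRCr8, whereas the counts were made on rn5), 5′ to 3′ on the strand of the gene, with capitals marking each GGGCGG or its reverse complement CCGCCC, the GC box. The Dnmt3a stretch is chr6:32598352-32598601 (plus strand) and the Dnmt3l stretch is chr20:10628990-10629239 (minus strand). Dnmt3a is transcribed from more than one start, and the table gives 1 of them.
Dnmt3a: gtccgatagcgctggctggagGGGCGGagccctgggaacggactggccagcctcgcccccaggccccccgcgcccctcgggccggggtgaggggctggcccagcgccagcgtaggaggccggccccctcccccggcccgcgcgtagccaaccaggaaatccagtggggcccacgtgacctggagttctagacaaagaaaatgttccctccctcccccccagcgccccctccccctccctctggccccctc
Dnmt3l: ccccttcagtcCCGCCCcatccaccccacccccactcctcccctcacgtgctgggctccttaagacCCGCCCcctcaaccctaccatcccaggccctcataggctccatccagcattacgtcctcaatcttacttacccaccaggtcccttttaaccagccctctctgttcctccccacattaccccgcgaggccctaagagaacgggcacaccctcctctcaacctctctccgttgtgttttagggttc
The Dnmt3a stretch held 1 GC box and 18 CpG sites, and the Dnmt3l stretch 2 GC boxes and 8 CpG sites. Of 33469 upstream stretches of the same length, 30.5% held a GC box on either strand, and the median number of CpG sites was 5. The stretches of all 9 genes of the set held 8 to 33 CpG sites, with a median of 18. Neither stretch held the octamer ATGCAAAT, known as a binding sequence of Oct4, nor an E2F-type sequence (TTTCCCGC, TTTGGCGC or TTTCGCGC) on either strand. These were found in 1.56% and 1.41% of all stretches. A match or its absence describes only the letters in this window.

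The levels of Dnmt3a and Dnmt3l also went with those of S phase genes. The summed CPM of 20 measured S phase genes, such as Rrm2, a subunit of ribonucleotide reductase, and Pcna, the replication clamp, had a rho of 0.62 with Dnmt3a and 0.53 with Dnmt3l over the 22 deep cells. Without the cells with Pou5f1 these were 0.51 and 0.43 over 20 cells. The sum gave no equal weight to its genes. Rrm2 had the highest mean over cells, 1460 CPM, and Pcna the next, 294 CPM, so the sum leaned on Rrm2. No rho was computed without Rrm2. The S phase sum was 5182 CPM in C74, 8839 in C72 and 7368 in C40, where the range over all cells was 0 to 10633 and the median 3487. Dnmt3a was detected in 6 of the 22 deep cells and in 4 of those 20, so its rho rests on few cells with reads. For Dnmt1, whose enzyme works at replication forks, rho was 0.14, and for Ezh2 it was 0.19. Hdac3 had a rho of -0.52, which was 0.04 over all 34 cells. CPM values of 1 cell share a total, so these rhos carry no p.

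In PRC2, Ezh2 is the catalytic subunit, and Eed binds the methyl mark and is needed for activity. Ezh2 was detected in 12 cells (35.3%, interval 19.7% to 53.5%) and ranged from 0 to 639 CPM, with a median of 0 and a mean of 49.4 ± 127 CPM. The highest cells were C47 (639 CPM, 70 reads), C46 (346 CPM) and C45 (243 CPM), and the mean without C47 was 31.5 CPM. Eed was detected in 18 cells (52.9%, interval 35.1% to 70.2%) and ranged from 0 to 566 CPM, with a median of 12.5 and a mean of 94.1 ± 150 CPM. C46 (566 CPM, 54 reads) and C09 (565 CPM, 36 reads) were the highest for Eed, followed by C30 (293 CPM) and C38 (290 CPM).

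Ezh2 and Eed were detected together in 5 cells (14.7%, interval 4.95% to 31.1%). Eed was thus found in 41.7% of the cells with Ezh2, beside 52.9% of all cells, and Ezh2 in 27.8% of the cells with Eed, beside 35.3% of all cells. These were C13, C17, C40, C46 and C72, while 9 cells had neither. Spearman's rho between them was -0.03 over the deep cells. At levels near 1 read a missing partner cannot be told from one not caught, and at 50 CPM the number was 2. Of the 4 cells with Col1a2, C17, C30 and C46 held Eed at 246, 293 and 566 CPM, and C14 held 0. C09, without Col1a2, held 565 CPM. The cells with Col1a2 were picked by a measured gene, and C14 and C30 are not deep cells, so this is a description without a test. In bulk, Ezh2 had 2 reads and Eed 4, or 84.9 CPM (interval 23.1 to 217), and the mean of the cells was 1.16 times the bulk for Ezh2 (interval 0.322 to 9.61) and 1.11 times for Eed (interval 0.433 to 4.07).

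**Figure D3:**
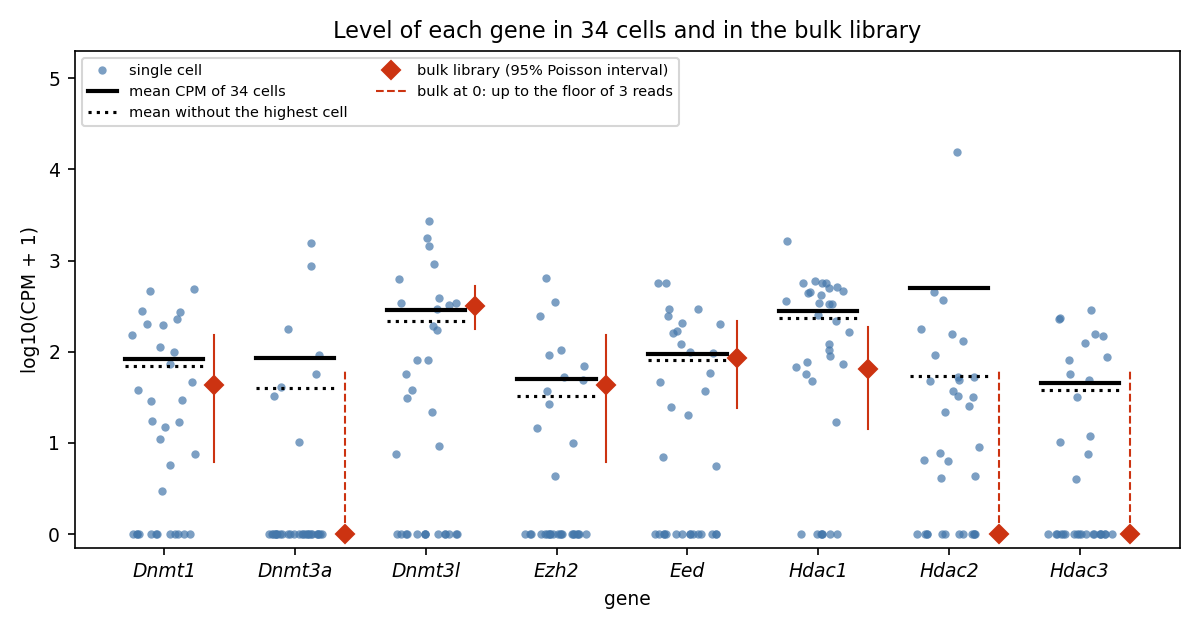
Level of each enzyme in 34 cells (points, log10(CPM + 1)) with the mean of the cells, the mean without the highest cell, and the bulk library with its 95% Poisson interval for counting error, or a dashed line up to the floor of 3 reads where it had none. For Hdac2 the mean falls from 505 to 52.7 CPM once C94 is left out, while for Hdac1 and Dnmt1 the lines lie close together.

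Among the deacetylases, Hdac1, a catalytic subunit of the Sin3, NuRD and CoREST corepressors, was the most widely detected of the 8 genes. It was found in 27 cells (79.4%, interval 62.1% to 91.3%) and in 21 of the 22 deep cells, and ranged from 0 to 1655 CPM, with a median of 190 and a mean of 277 ± 323 CPM. C95 was the highest (1655 CPM, 745 reads) and held 17.6% of the summed CPM. The next cells, C27, C10 and C40, lay between 568 and 601 CPM. The cells without a read were C03, C31, C45, C46, C47, C88 and C94, which includes the 2 shallowest cells and 1 deep cell, C46.

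Reads of Hdac1 went with those of a related gene. The table has a separate record for Hdac1l, a gene whose symbol marks it as Hdac1-like, and its reads followed those of Hdac1 from cell to cell (rho 0.96 over 34 cells, 0.93 over the deep cells). Hdac1l was detected in 26 cells at 220 ± 292 CPM, and 25 cells had both. In the 21 cells with at least 20 Hdac1 reads, Hdac1l took 35.1% to 55.2% of the reads of both genes, with a median of 42.5%. RefSeq also names 18 Hdac1 pseudogenes, of which 0 are records of the table. The sources used here do not say how reads with several matching places were counted, so the level of Hdac1 alone is uncertain. The sum of both was 497 ± 611 CPM.

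**Figure D4:**
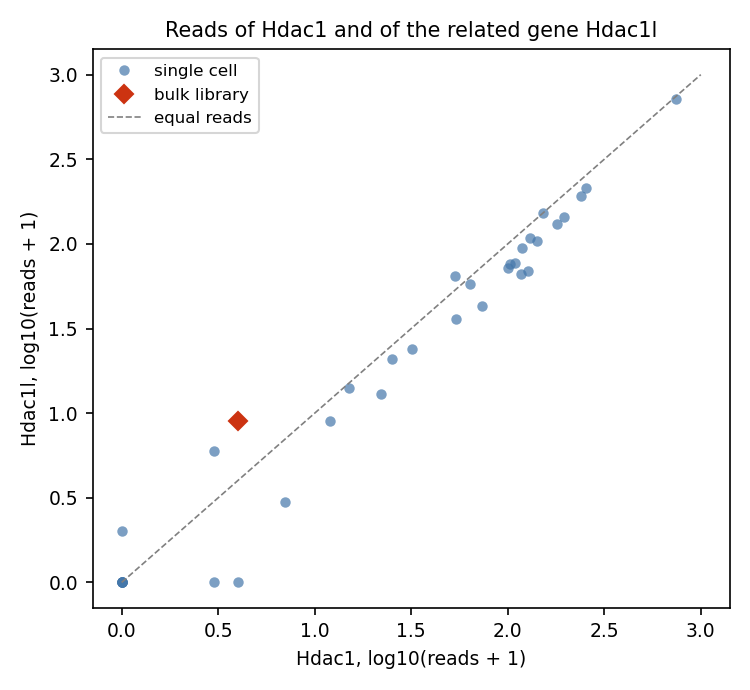
Reads of Hdac1l against reads of Hdac1 as log10(reads + 1), 1 point per cell and a diamond for the bulk library; the dashed line marks equal reads. The cells run along the line, most of them just under it, and the bulk library, with 3 and 8 reads, lies above it.

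Hdac2, the partner of Hdac1 in the same complexes, was detected in 20 cells and ranged from 0 to 15426 CPM, with a median of 7.38 CPM. Its mean of 505 ± 2638 CPM rested on C94, the shallowest cell, whose 97 reads were 89.9% of the summed CPM. Without C94 the mean was 52.7 ± 103 CPM, and the highest cells were C31 (448 CPM, 43 reads), C30 (367 CPM, 10 reads) and C15 (174 CPM, 54 reads). Hdac1 and Hdac2 were detected together in 16 cells, which were 80% of the cells with Hdac2, beside 79.4% of all cells with Hdac1.

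Hdac3, the deacetylase of the NCoR and SMRT corepressors, was detected in 14 cells (41.2%, interval 24.6% to 59.3%), 13 of them deep cells. It ranged from 0 to 287 CPM, with a median of 0 and a mean of 44.3 ± 78.5 CPM, and its highest values were in C24 (287 CPM, 72 reads), C10 (233 CPM, 98 reads) and C38 (227 CPM, 86 reads). Of the cells with Hdac3, 13 of 14 also had Hdac1, beside 27 of all 34 cells, and 7 had Hdac2, beside 20 of 34.

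The signal of these genes was unevenly spread over cells, as it was for other genes. A single cell held over 50% of the summed CPM for 2 of the 8 enzymes, Dnmt3a and Hdac2, and for 9.72% of the 5774 genes detected in at least 8 cells. The median share of the highest cell was 23.3% over the 8 enzymes and 24.6% over those genes.

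Set against the bulk library, 2 of the 8 enzymes were past 2-fold, both higher in the cells, Hdac1 and Hdac2. The background was 6452 genes whose cell and bulk levels averaged 10 CPM or more. Of these, 11% were higher in the cells and 30.9% higher in bulk, 41.9% in all. The bulk library held more of the fibroblast markers Col1a2 (849 CPM, cells' mean 135) and Col1a1 (828 CPM, cells' mean 58.8). Postn, Col3a1 and Thy1, also fibroblast markers, had no bulk read. Whether a different mix of cells adds to the ratios was not tested. Hdac1 was 4.34-fold higher in the mean of the cells (interval 1.49 to 21.1, from 3 bulk reads). Summed with Hdac1l, which had 8 bulk reads, the ratio was 2.13 (interval 1.19 to 4.26). Hdac1l alone had a ratio of 1.30 (interval 0.658 to 3.01), and it took 72.7% of the bulk reads of both genes. How the split of reads between the 2 genes bears on the ratio of Hdac1 was not tested. Hdac2 had no bulk read and was at least 7.93-fold higher than the floor of 3 reads, a bound that takes reads as independent, but without C94 the cells' mean was under that floor and no fold can be given.

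Dnmt1, Dnmt3l, Ezh2 and Eed were within 2-fold by their point values. Dnmt1 in the cells was 1.91 times the bulk (interval 0.530 to 15.8), and 2.45 times in the deep cells. Dnmt3a, with no bulk read, was at least 1.32-fold above the floor, a bound that needs C74, without which the mean was under the floor. Hdac3 had no bulk read and a mean under the floor, so no fold is given. In all, 3 of the 8 enzymes lacked a bulk read, as did 33.9% of the genes detected in at least 8 cells. The median of log2(cells/bulk) over the 6452 genes was -0.62, and 26.2% of the genes past 2-fold were higher in the cells. With DESeq2 size factors the median was 0.05 and that share 55.0%, and Dnmt1 (3.24) and Dnmt3a (at least 2.38) were then past 2-fold as well. With TMM factors the median was -0.47, and Dnmt1 (2.24) was past 2-fold. The direction of Hdac1 was the same under each scaling.

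Partners of these enzymes were counted by list, and differences between lists were not tested. Of 115 further genes on 9 lists, 82 were measured, and 21 of these (25.6%) were detected in at least 17 cells. This was beside 17% of all genes and near the 27.3% of the genes with a read in any cell. The lists were made from general knowledge of these complexes and with earlier results of these data known.

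Histone-binding subunits led the PRC2 list. Rbbp4 (31 cells, 231 ± 327 CPM) and Rbbp7 (29 cells, 980 ± 917 CPM), which PRC2 shares with the deacetylase complexes, were found in more cells than Ezh2 or Eed. Mtf2, which guides PRC2 to CpG islands, was detected in 17 cells, and Ezh1, the paralogue of Ezh2, in 10 cells. In all, 3 of 7 measured PRC2 partners reached 17 cells. On the PRC1 list it was 2 of 16, Pcgf5 (27 cells) and Pcgf1 (17), followed by Pcgf6 and Yaf2 (16 each). The mean of Pcgf1, 476 CPM, rested on C94, which held 94.3% of it, and was 28.01 CPM without that cell.

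Of 17 measured partners of the class I enzymes, 7 reached 17 cells, led by Ncor1 (29 cells), which anchors Hdac3, Sap18 (27), Gatad2a (26) and Tbl1x (26). Of 9 other deacetylases none did, the most frequent being Sirt6 (11 cells), Sirt7 (6), Hdac5 (5) and Hdac4 (3). Among histone acetyltransferases, which oppose the deacetylases, 3 of 7 did, Crebbp (30 cells, 396 ± 372 CPM), Hat1 (26) and Kat7 (20), with Kat6a in 15.

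On the DNA methylation list, 2 of 9 measured genes reached 17 cells: Usp7, a deubiquitinase that stabilises Dnmt1 (24 cells, 132 ± 129 CPM), and Hells, a chromatin remodeller needed for methylation (21 cells, 272 ± 423 CPM). Mbd2, a reader of methylated CpG, was detected in 14 cells and Uhrf2 in 12. Dnmt3b, Uhrf1 and Mbd4 of this list, and Tet1, Tet2 and Tet3 of the demethylation list, matched no record and were not measured. Of 5 measured demethylation genes, the glycosylase gene Tdg reached 17 cells (22 cells, 107 ± 221 CPM), and Gadd45g (15), Gadd45a (14) and Gadd45b (6) did not. For lysine 9 methylation of histone H3 and its HP1 readers it was 3 of 7, Cbx3 (28 cells), Trim28 (27) and Cbx5 (25), with the methyltransferase Setdb1 in 15. On the list of demethylases for lysines 27 and 9 of histone H3, none of 5 measured genes reached 17 cells. Kdm3a was found in 11 cells, Kdm4c in 10, Kdm4a in 7 and Kdm6b in 4. Of histone demethylase genes counted on other lists, Kdm1a was detected in 22 cells and Kdm2b in 11. Of the S phase genes 12 of 20 reached 17 cells, led by Rrm2 (31 cells), Slbp (26), Pcna (25) and Mcm4 (25).

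**Figure D5:**
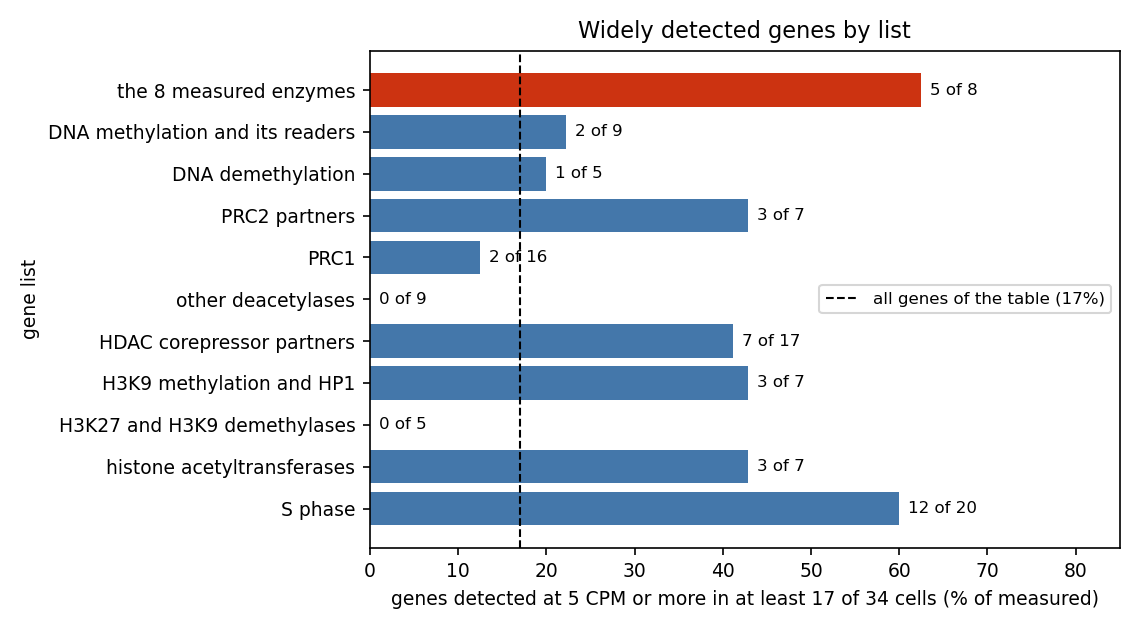
Share of the measured genes per list detected at 5 CPM or more in at least 17 of 34 cells, with the number beside each bar. The dashed line is the share over all genes of the table. The share over genes with a read in any cell, 27.3%, is not drawn. The 8 enzymes (5 of 8) and the S phase list (12 of 20) have the longest bars. Other deacetylases (0 of 9) and the demethylases listed for lysines 27 and 9 of histone H3 (0 of 5) have none.

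Genes whose levels followed a member most closely were sought over the 22 deep cells among 2923 genes detected in at least 17 cells. For Dnmt3l they were Mif (rho 0.76), Rrm2 (0.73) and a record without a matched symbol. For Hdac1 they were Hdac1l, Emc6 (0.79) and Fscn1 (0.72), and for Hdac2 Tagln2 (0.80), Brd2 (0.69) and Pfn1 (0.65). Eed was followed by Ndufa4 (0.71), and Dnmt1 by Hnrnph1 (0.66), Mrps34 (0.66) and another record without a matched symbol. The highest of so many values over 22 cells is large by selection, so these are names for the pattern and carry no test.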

How the data were processed

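The deposited values are whole-number read counts per RefSeq transcript record, 1 column per library. TopHat2 and the rn5 build were used, per the submitters' processing notes. For the read counter, its annotation and its handling of reads with several matches, nothing is given in the sources used here. The labels mention no molecular identifiers, and 59.8% to 72.6% of a cell's nonzero counts and 79.9% of those of the bulk library were even numbers, more than independent reads would give, so intervals and floors, which cover counting error only, are too narrow and too low. Of 17201 records, 16215 were matched by identifier to a RefSeq symbol (GRCr8 table) and summed per symbol. The other 986 kept their identifiers and stayed in the totals. No 2 of the 595 library pairs were identical.

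CPM used library totals. Cells are not replicates: SDs describe cells, with exact Clopper-Pearson (shares of cells) and Poisson (bulk reads) 95% intervals, and no p was computed. Ratios hold the cells' mean fixed. No cell was removed and no doublet caller was run. Python 3.11.15, pandas 2.3.3, SciPy 1.17.1, edgeR 4.0.16 (TMM factors) and DESeq2 1.42.0 (size factors) were used. The code for ratios and rhos was run on simulated independent Poisson counts, with planted patterns in genes of high mean only. That checks the code and not the ratios or rhos of genes with few reads.

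The members and lists were chosen with earlier results of these data known. Named were the 8 measured members, the 4 genes of each list found in the most cells, and the 3 genes most alike to each member detected in at least 17 cells, of which some are not reported here. Kdm1a, Kdm2b and the listed genes of DNA methylation and demethylation without a record were named too. Cells with Ezh2, Eed and Suz12 together were planned. With Suz12 unmatched, Ezh2 with Eed was counted instead.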

Additional observations from a re-analysis of the deposited data

How the results depend on the processing

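Counts of detection depended on the threshold. At 50 CPM in place of 5, 1 of the 8 enzymes in place of 5 and 13 of the further genes in place of 21 reached 17 cells, and Ezh2 and Eed met in 2 cells in place of 5. At 1 read 5 enzymes reached 17 cells. In the deep cells 6 were detected in at least 11 of 22, and after thinning to 50000 reads 4 were expected with a read in at least 15 of 30 cells. The number past 2-fold against bulk, 2, was 4 with DESeq2 size factors (Dnmt1, at 3.24, and Dnmt3a, at least 2.38, were added), 1 without the highest cell of each gene and 5 with the median over cells, of which 4 were then higher in bulk. The medians of those 4, Dnmt1, Dnmt3l, Ezh2 and Eed, lay between 0 and 25.4 CPM. In the other settings run it was 2 or 3, but not always of the same genes: Hdac1 and Dnmt1 (2.45) in the deep cells, Hdac1, Hdac2 and Dnmt1 (2.24) with TMM factors, and Hdac1, Dnmt1 (2.00) and Dnmt3a (at least 2.02) with the cells pooled. The cause was not tested. The ratio of Hdac2 to the floor was 2.65 with TMM and 3.25 with DESeq2 factors, and no fold could be given in the deep cells, without C94 or with the cells pooled. The pair of Dnmt3a and Dnmt3l, the count of Ezh2 with Eed alone, leaving out the cells with Col1a2 or Pou5f1, and the sum with Hdac1l were chosen after seeing the data. The SD over cells exceeded the mean for every member. The mean of Hdac2, 505 CPM, was 34.7 CPM in the deep cells, and that of Dnmt3a, 83.8 CPM, was 10.1 CPM without the cells with Pou5f1. Bulk counts of 0 to 15 reads limit every ratio. No paired analysis was possible because the bulk group holds 1 library and replicate numbers only name the cells.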
